A study of Tupaia belangeri with 6 samples.

Results

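Tetraspanins are small membrane proteins with 4 membrane-spanning segments, and here 7 of them were described with a pair of immunoglobulin partners in the hippocampus of tree shrews (TSs, Tupaia belangeri). The members were the features whose gene name in the deposited tables was CD9, CD63, CD81, CD82, CD151, TSPAN2, TSPAN7, IGSF8 or PTGFRN, 9 of 83605 features. Single-nucleus RNA sequencing with a 10x 3′ kit was run on frozen hippocampus of 3 naturally aged TSs with Alzheimer's-like pathology (ALP) and 3 control TSs without it, 1 library each. All animals were drawn from a colony aged 5 to 6 years, and no transgene or agent is named for either group. The ALP TSs had been picked from that colony by slow completion of a pipeline maze, so they are the tail of a natural distribution and not an induced model. The labels give neither the sex of an animal nor whether libraries were made together.

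Tetraspanins gather integrins, immunoglobulin proteins and membrane proteases into patches of the plasma membrane called tetraspanin-enriched microdomains. CD9 and CD81 bind the EWI proteins IGSF8 (EWI-2) and PTGFRN (EWI-F, also called CD9P-1) directly, CD151 and CD82 are best known beside integrins, and CD63 cycles through late endosomes and is packed with CD9 and CD81 into exosomes. In brain, CD9 is a protein of myelin and of the oligodendrocyte lineage, TSPAN2 has been described in rodent oligodendrocytes, and TSPAN7 is a neuronal and glial tetraspanin that binds PICK1 and affects AMPA receptor trafficking.

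The members were proposed with results of these libraries in view, so their differences between ALP TSs and control TSs are a description of these 6 animals and not independent evidence. Levels are unique molecular identifiers (UMIs) of a gene per 1000000 UMIs of a library and cell class, written CPM, and tests compared 3 library sums with 3 by edgeR's quasi-likelihood test, with Benjamini-Hochberg adjustment over every feature tested in that class. A gene was called when the adjusted p was under 0.05 and the log2 fold change (ALP over control) was beyond 0.25 in size. Values in the text run from control 1 to control 3 and then from ALP 1 to ALP 3. Levels of different genes were not compared with each other.

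The 6 libraries held 3011 to 8785 barcodes and 19182981 to 35898940 UMIs. Filters on genes and mitochondrial UMIs kept 28233 of 37603 barcodes, with 1614 to 7022 nuclei and a median of 1502.5 to 2187.5 UMIs per library. The upper limit of 2500 genes removed 46.4% of the barcodes of control 2 and 16.0% to 27.7% of those of the others, and control 2 had the fewest barcodes (3011) and the fewest kept nuclei. Any pair of libraries shared at most 18 barcode sequences. Clusters were called X-like from marker genes: oligodendrocyte-like (Oligo, 8405 nuclei), OPC-like (oligodendrocyte progenitors, 2718), Astro-like (3228), Micro-like (microglia, 1430), granule-like (Gran, 2299), pyramidal-like (Pyra, 2835), inhibitory-neuron-like (InN, 2429), ependymal-like (170), endothelial-like (Endo, 224) and fibroblast-like (106). Among defining markers, MOBP had no UMI and MBP 22 UMIs in all barcodes, GAD2 had none in InN nuclei, and the other oligodendrocyte and progenitor markers were detected. Unnamed clusters took 14.1%, 19.95% and 28.6% of control nuclei and 10.2%, 9.78% and 9.55% of ALP nuclei. Transcripts of the Y-linked gene DDX3Y were found in control 1, control 2 and ALP 2 and were near 0 in the others, so both groups held animals of both kinds, in unequal numbers.

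Of the 9 members, 7 had UMIs in kept nuclei. CD63 had none in any of the 37603 barcodes, which held 158150651 UMIs, and a count of 0 there allows up to 0.019 CPM. CD81 had 1 UMI in all barcodes and none in kept nuclei. A gap of this kind is not particular to these genes, since 1813 of 14930 features with a RefSeq gene symbol (12.1%) had no UMI, among them the abundant myelin gene MOBP. A feature named as antisense to CD81, CD81-AS-2, held 6429 UMIs in all barcodes, and whether the counting used strand is not given in the sources used here, so reads of the gene and of its antisense feature cannot be told apart. Nothing was therefore read about the level of CD63 or CD81 in these nuclei.

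CD9 was found in every class. Its highest mean was in oligodendrocyte-like nuclei, at 305 CPM ± 156 (SD, n = 6 libraries of both groups). That class gave 54.1% of all CD9 UMIs in kept nuclei from 19.4% of all UMIs. Ependymal-like nuclei followed with 268 ± 130, OPC-like with 133 ± 66.8, fibroblast-like with 104 ± 62.1, Micro-like with 101 ± 26.8 and Astro-like with 67.2 ± 26.0. Endo-like nuclei had 56.9 ± 24.9 and Gran nuclei 42.3 ± 20.2, and the lowest means were those of Pyra (27.0 ± 8.93) and InN (23.7 ± 11.7). Every class overlapped its neighbour in this order, and Oligo nuclei were above ependymal-like nuclei in 2 of 6 libraries, so these libraries do not separate the leading classes. In control TSs the mean was 167 CPM in Oligo and 294 in ependymal-like nuclei, and in ALP TSs it was 444 and 241. Ependymal-like nuclei had the highest mean without ALP 1, without ALP 3 and without the upper gene limit. Shares of nuclei were taken after thinning to 1000 UMIs, with shallower nuclei left out of every such share here and below. This left out 1433 of 8405 Oligo and 44 of 2429 InN nuclei. Of the rest, 23.7% ± 9.03 of Oligo nuclei (n = 6) had a CD9 UMI, against 2.48% of InN nuclei, the class with the lowest CD9 mean. The level of free RNA was not measured. Without thinning the Oligo share was 31.3%, at a median of 1332 UMIs per Oligo nucleus and 4289 per InN nucleus.

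IGSF8, the EWI protein that binds CD9 and CD81, was found in every class. Its mean was 102 CPM ± 46.5 in Oligo, 72.6 ± 25.7 in Pyra, 70.0 ± 28.6 in Gran and 52.4 ± 17.6 in InN nuclei (SD, n = 6 each). Micro-like nuclei had 51.4 ± 32.1, OPC-like 51.0 ± 23.5, Endo-like 49.5 ± 26.0 and Astro-like 37.5 ± 6.51. The lowest means were those of fibroblast-like (23.2 ± 28.1, 4 UMIs) and ependymal-like nuclei (21.1 ± 19.2, 8 UMIs). All neighbours in this order overlapped. Oligo nuclei held 27.6% of IGSF8 UMIs and Pyra nuclei 23.5%. Over the 60 library and class sums, log levels of CD9 and IGSF8 had a Pearson correlation of -0.03, given as a description over sums that share libraries and depth.

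**Figure D1:**
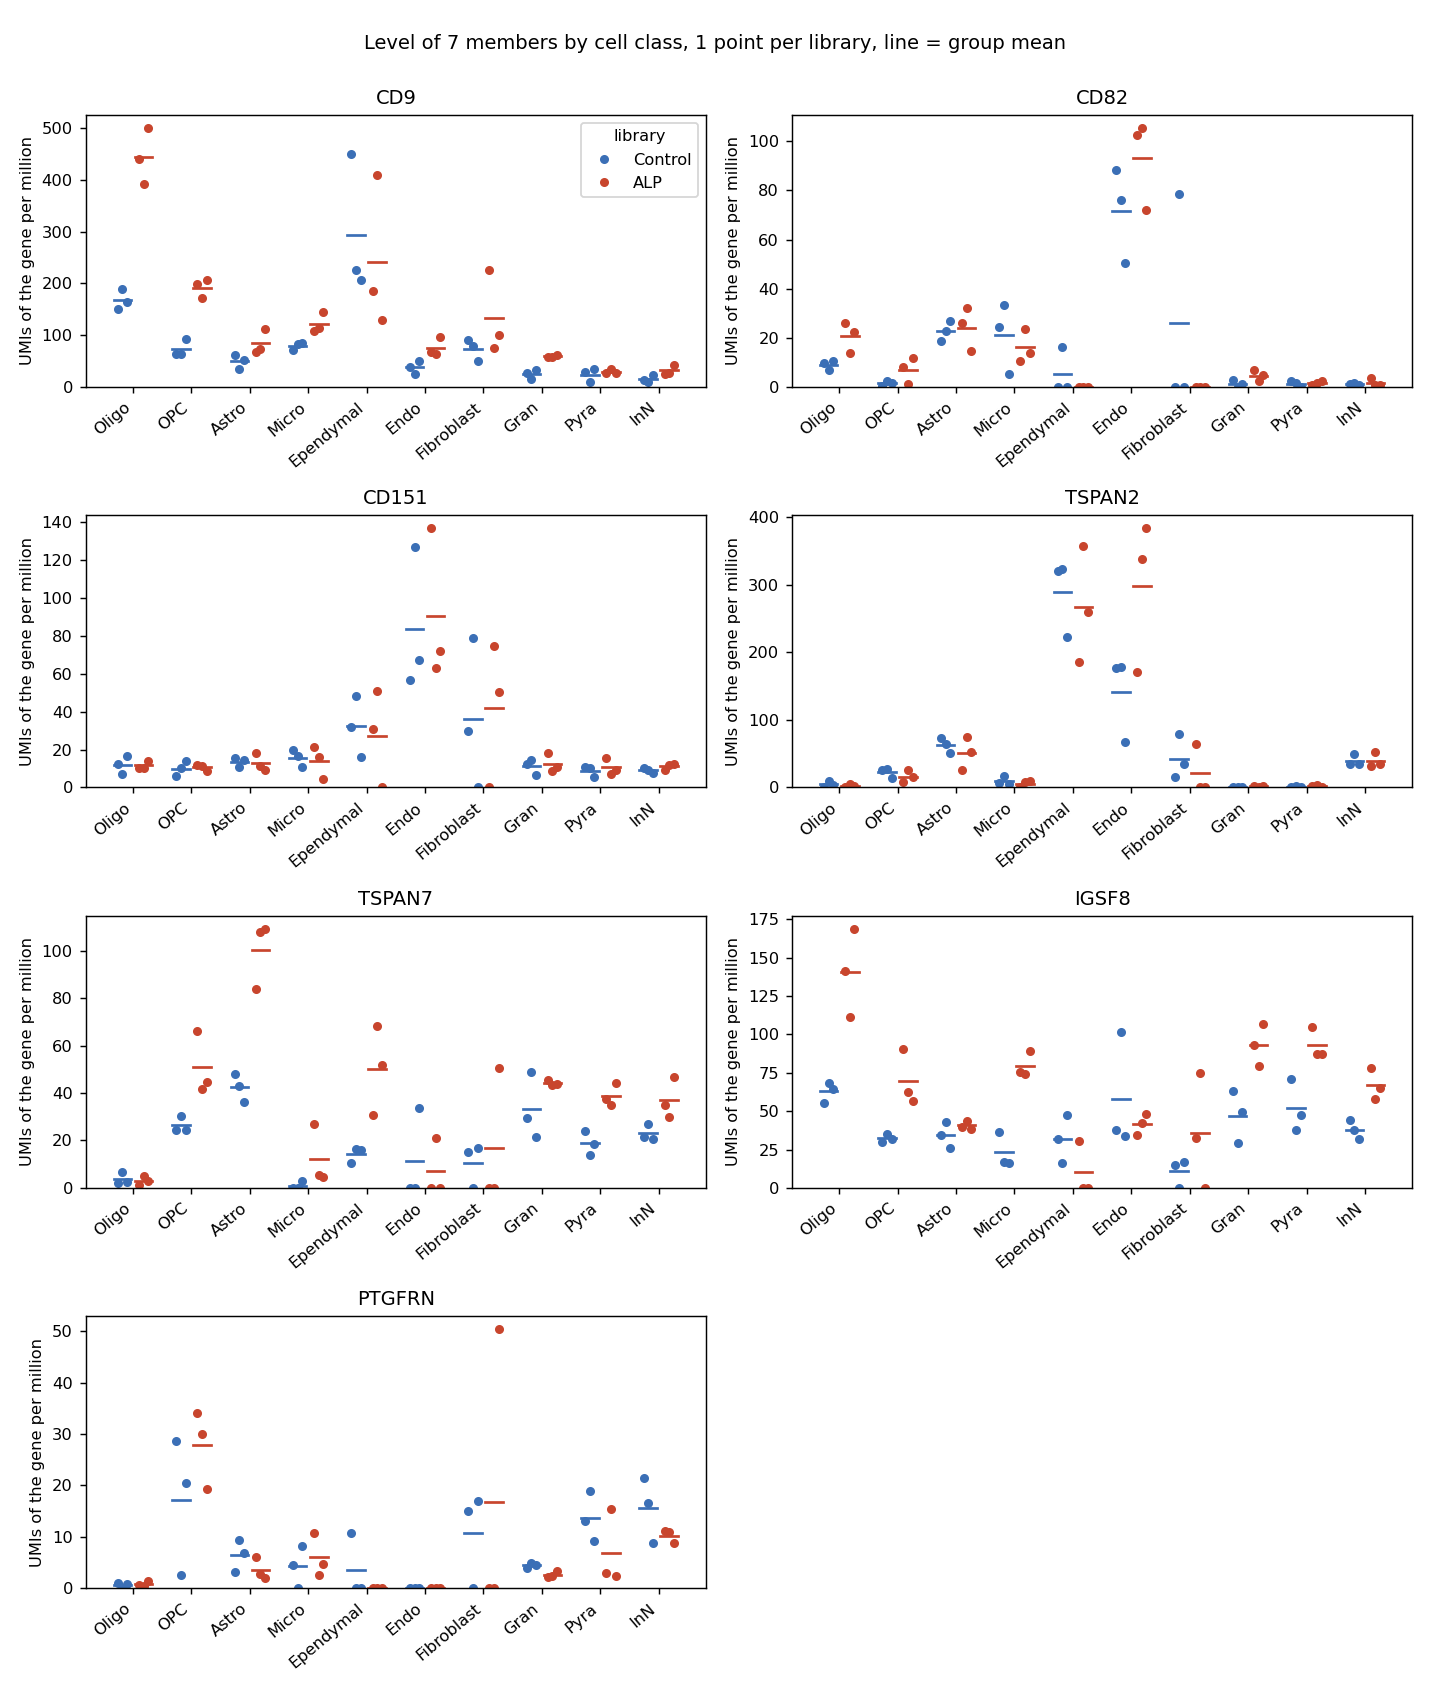
Level in CPM (y axis) of each of the 7 members with UMIs, 1 panel per gene, in each cell class (x axis), with 1 point per library (blue control, red ALP) and a short line at each group's mean. CD9 is highest in Oligo and ependymal-like nuclei, TSPAN7 in Astro-like, TSPAN2 in ependymal-like and Endo-like, PTGFRN in OPC-like and CD82 and CD151 in Endo-like nuclei.

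In oligodendrocyte-like nuclei, CD9 was at 150, 188 and 163 CPM in control TSs and at 440, 391 and 501 CPM in ALP TSs. Every ALP library was above every control library. The log2 fold change was 1.52 (SE 0.19, adjusted p = 0.0103, edgeR), and CD9 was called. In the same nuclei IGSF8 was at 55.3, 68.5 and 64.6 CPM in control TSs and at 141, 111 and 169 CPM in ALP TSs, again without overlap. Its log2 fold change was 1.29 (SE 0.21, adjusted p = 0.0170, edgeR), and it was called. In this class 1.93% of the 11650 features tested were called higher in ALP TSs and 9.62% had all ALP libraries above all control libraries. In a sum over nuclei, fewer nuclei with the transcript and less RNA per nucleus cannot be told apart. The share of Oligo nuclei with a CD9 UMI, at 1000 UMIs per nucleus, was 13.7%, 17.6% and 16.0% in control TSs and 31.1%, 28.8% and 35.2% in ALP TSs. The share of InN nuclei with a CD9 UMI also differed, at 1.43%, 0.924% and 2.38% in control and 2.90%, 2.96% and 4.28% in ALP TSs. The part of free RNA in the CD9 values of any class was not tested. For IGSF8 the shares of Oligo nuclei were 5.30%, 6.82% and 6.34% against 11.8%, 9.54% and 14.6%.

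CD82, a tetraspanin that sits with integrins and growth factor receptors, was at 9.96, 6.85 and 10.6 CPM in control and 25.9, 14.0 and 22.6 CPM in ALP Oligo nuclei. The groups did not overlap, but the log2 fold change of 1.17 (SE 0.33) did not pass the test (adjusted p = 0.0699, edgeR). CD151, which binds laminin-binding integrins, had a log2 fold change of -0.10 (SE 0.34, adjusted p = 0.905, edgeR) in Oligo nuclei. TSPAN2, TSPAN7 and PTGFRN were too low for the test there, with means of 3.88, 3.42 and 0.74 CPM. The low TSPAN2 level rested on 33 UMIs in 8405 Oligo nuclei.

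The mix of Oligo clusters moved with the groups. Cluster 2, led by TNFAIP6, KLK6 and RNASE1, held 5.4%, 26.2% and 8.64% of control Oligo nuclei and 56.6%, 37% and 59.4% of ALP Oligo nuclei, and cluster 18, marked by the early myelination gene ENPP6, held 2.5% to 6.01% and 6.75% to 8.56%. Within clusters, the CD9 level was as follows. In cluster 2 it was 185 CPM ± 38.4 in control and 483 ± 65.2 in ALP TSs, in cluster 4 it was 181 ± 30.7 and 444 ± 19.5, and in cluster 6 it was 175 ± 28.8 and 372 ± 37.7 (SD, n = 3 each). Cluster 8 had 153 ± 14.8 and 389 ± 67.9, cluster 18 had 81.1 ± 36.1 and 278 ± 65.0, and cluster 23 had 154 ± 15.5 (n = 2 control libraries with enough nuclei) and 655 ± 281. The ALP libraries lay above the control libraries in each of these 6 clusters, as did 9.73% of features in cluster 2, 6.65% in cluster 4, 6.54% in cluster 6, 5.82% in cluster 8, 7.79% in cluster 18 and 4.77% in cluster 23. IGSF8 did not overlap in clusters 2, 4, 8 and 18, and overlapped in clusters 6 and 23. In cluster 2 it was 55.2 ± 5.49 and 147 ± 36.1 CPM. Control 2 held 17 nuclei in cluster 8 and 11 in cluster 18. In cluster 18 control TSs had 12 IGSF8 and 27 CD9 UMIs. The separations in these small sums carry a wide counting error. When clusters 2 and 18 were left out of the sums, a choice made after seeing the data, the log2 fold changes were 1.41 for CD9 (adjusted p = 0.00895, edgeR) and 1.19 for IGSF8 (adjusted p = 0.0319, edgeR). The clusters were cut from the same counts, so these values are a description.

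**Figure D2:**
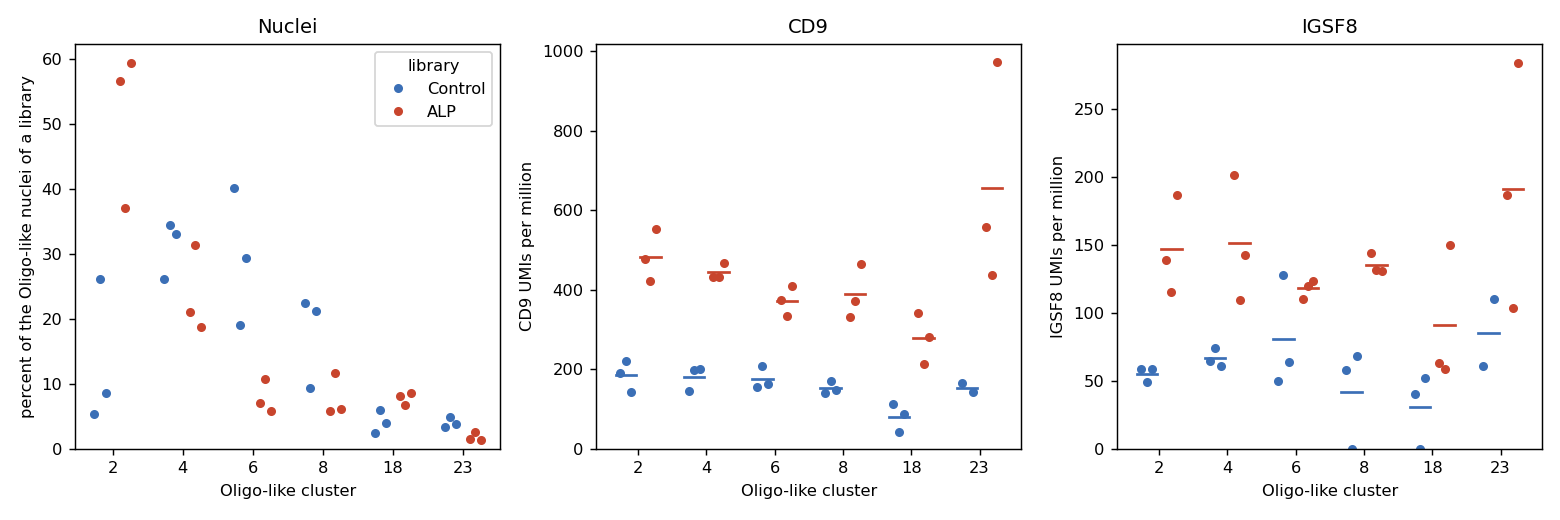
Percent of a library's Oligo nuclei (left) and level of CD9 (middle) and of IGSF8 (right) in CPM (y axes) in each Oligo cluster (x axis). Points are single libraries (blue control, red ALP), with a short line at each group's mean in the CD9 and IGSF8 panels. The CD9 values of ALP libraries lie above those of control libraries in all 6 clusters, for IGSF8 in 4 of the 6. Control 2 had few nuclei in clusters 8 and 18.

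OPC-like nuclei differed in the same genes. CD9 was at 64.3, 63.2 and 93.2 CPM in control TSs and at 199, 171 and 206 CPM in ALP TSs, a log2 fold change of 1.40 (SE 0.20, adjusted p = 0.0191, edgeR). IGSF8 was at 29.8, 35.4 and 31.9 CPM in control TSs and at 90.3, 62.5 and 56.4 CPM in ALP TSs, a log2 fold change of 1.16 (SE 0.25, adjusted p = 0.0429, edgeR). Both were called in a class where 0.399% of 8782 features were called higher and 8.05% had all ALP libraries above. TSPAN7 was at 24.6, 30.3 and 24.5 CPM against 66.2, 41.6 and 44.6 CPM without overlap, and its log2 fold change of 1.00 (SE 0.28) did not pass (adjusted p = 0.102, edgeR). Summed Oligo markers in OPC-like nuclei were 250 to 608 CPM in control TSs and 508 to 634 CPM in ALP TSs, ranges that overlap. Summed Gran markers in the same nuclei were 446 to 529 CPM in control and 552 to 598 CPM in ALP TSs, with 3 of 4 detected and DSP at 0. Of these, SEMA5A was itself raised in the OPC-like cluster found without the upper gene limit, so the sum is not particular to Gran transcripts. Summed Pyra markers there were 333 to 612 CPM in control and 370 to 439.5 CPM in ALP TSs, ranges that overlap. Gran and Pyra nuclei both had more IGSF8 than OPC-like nuclei. The part of any of these lists in the CD9 and IGSF8 values was not tested. The share of OPC-like nuclei with a CD9 UMI at 1000 UMIs was 5.80%, 6.48% and 8.94% in control and 16.7%, 15.7% and 19.2% in ALP TSs. OPC-like nuclei with a UMI of BCAS1, a gene of newly forming oligodendrocytes, had more CD9 than those without it in 3 of 6 libraries.

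PTGFRN, the EWI-F partner of CD9, was highest in OPC-like nuclei, with 22.5 CPM ± 11.3 (SD, n = 6). Single libraries had 28.6, 2.53 and 20.4 CPM in control TSs and 34.1, 30.1 and 19.3 CPM in ALP TSs, and the low value was control 2, which held 194 OPC-like nuclei. The groups overlapped, with a log2 fold change of 0.48 (adjusted p = 0.665, edgeR). Fibroblast-like nuclei followed with a mean of 13.7, InN nuclei with 12.9 ± 5.07 and Pyra nuclei with 10.3 ± 6.71, and among Pyra clusters the one led by TSHZ2 had 35.6 ± 18.3 (n = 5 libraries). In Oligo nuclei, the class with the highest mean of CD9 and of IGSF8 over all libraries, PTGFRN was at 0.74 CPM.

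TSPAN7 was highest in Astro-like nuclei, with 71.3 CPM ± 33.2 (SD, n = 6), above OPC-like nuclei (38.6 ± 15.9) in 6 of 6 libraries. Gran nuclei had 38.6 ± 10.8, InN nuclei 30.1 ± 9.66 and Pyra nuclei 28.8 ± 11.9, and Micro-like and Oligo nuclei were lowest at 6.62 and 3.42 CPM. In Astro-like nuclei TSPAN7 was at 48.0, 42.9 and 36.2 CPM in control TSs and at 83.9, 108 and 109 CPM in ALP TSs. All ALP libraries lay above all control libraries, with a log2 fold change of 1.40 (SE 0.21, adjusted p = 0.0364, edgeR). It was called in a class where 0.0986% of 10141 features, 10 in all, were called higher and 6.79% had all ALP libraries above. The share of Astro-like nuclei with a TSPAN7 UMI at 1000 UMIs was 4.40%, 4.03% and 3.49% in control and 7.38%, 10.0% and 10.5% in ALP TSs. Summed Astro markers were 4290 to 5080 CPM in control and 5219 to 5573 CPM in ALP Astro-like nuclei, so markers of the class itself also lay higher, by less, and their part in the TSPAN7 difference was not tested.

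CD9 in Astro-like nuclei was at 62.7, 34.9 and 51.7 CPM in control TSs and at 67.9, 73.5 and 112 CPM in ALP TSs. The groups did not overlap, and the log2 fold change of 0.90 (SE 0.27) did not pass (adjusted p = 0.116, edgeR). Ependymal-like and Oligo nuclei both had a higher CD9 mean than Astro-like nuclei. Summed ependymal markers were 334 to 398 CPM in control and 414 to 663 CPM in ALP Astro-like nuclei, with 6 of 6 detected. Of these, SPAG17 was itself raised in the Astro-like cluster found without the upper gene limit, so the sum is not particular to ependymal transcripts. Summed Oligo markers were 329 to 675 CPM in control and 282 to 415 CPM in ALP Astro-like nuclei, which overlap, with MBP and MOBP at 0. The part of either list in the CD9 value was not tested. IGSF8 had 34.2, 42.9 and 26.2 against 39.9, 43.5 and 38.5 CPM, which overlap, with a log2 fold change of 0.41 (adjusted p = 0.452, edgeR). CD82 and CD151 had log2 fold changes of 0.21 and -0.04 in this class and TSPAN2 of -0.09, none of them called. Whether the CD9 or IGSF8 difference is smaller in Astro-like than in Oligo nuclei was not tested.

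TSPAN2 had its highest means in ependymal-like and Endo-like nuclei. Ependymal-like nuclei had 278 CPM ± 66.8 and Endo-like nuclei 219 ± 118, the latter from 76 UMIs. Astro-like nuclei had 56.9 ± 18.3, InN nuclei 39.5 ± 9.11 and OPC-like nuclei 19.5 ± 8.08 (SD, n = 6 each). The excitatory classes were near 0, with 1.72 CPM in Pyra and 1.19 CPM in Gran nuclei. Among the neuron classes InN thus had the most TSPAN2, and in it the cluster led by CALCR, VIP and CALB2 had 60.4 ± 11.9 CPM. The cluster led by SST and CRHBP had 39.5 ± 10.1, the one led by LAMP5 36.2 ± 7.30 and the one led by CNR1 30.1 ± 14.3. After thinning to 1000 UMIs, 25.6% of ependymal-like nuclei and 0.105% of Gran nuclei had a TSPAN2 UMI. No class showed a called difference, with log2 fold changes of -0.33 in OPC-like, -0.09 in Astro-like, -0.08 in ependymal-like and 0.15 in InN nuclei.

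Within the Astro-like class TSPAN2 moved with GFAP, the intermediate filament of reactive and white-matter astrocytes. Nuclei with a GFAP UMI had 118, 97.8 and 87.0 CPM of TSPAN2 in control TSs and 46.9, 111 and 108 CPM in ALP TSs. Nuclei without one had 30.2, 35.2 and 29.5 CPM and 17.1, 48.5 and 25.9 CPM. Nuclei with GFAP were higher in 6 of 6 libraries, with means of 94.8 ± 25.9 against 31.1 ± 10.4 (SD, n = 6). CD9 was also higher with GFAP in 6 of 6 libraries, at 80.5 ± 29.8 against 59.3 ± 26.9 CPM. These SDs give the spread between libraries of both groups and not that of the paired differences, which were not tested. TSPAN7 and IGSF8 were higher with GFAP in 3 of 6 libraries each. Median depth was 1602.5 to 2358 UMIs per nucleus with GFAP and 1519.5 to 2197 without, and its part in these differences was not tested.

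**Figure D3:**
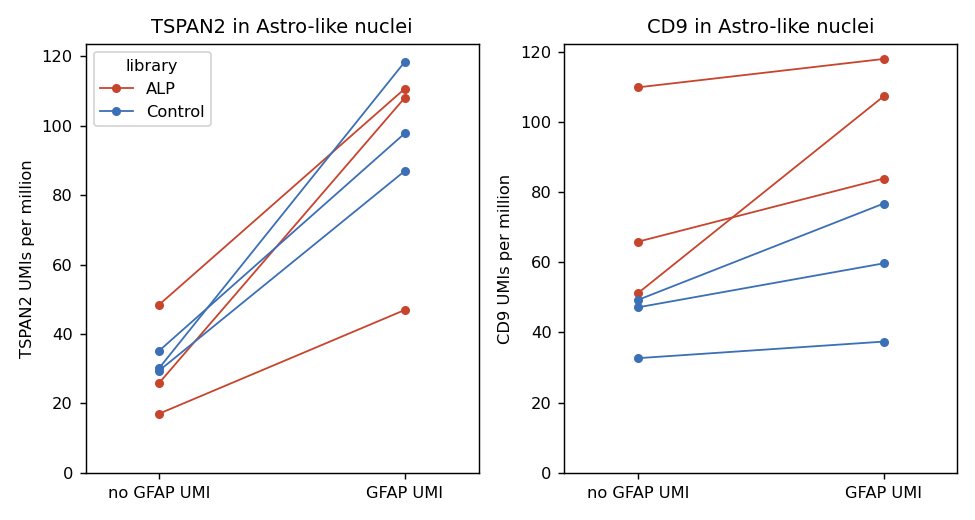
Level of TSPAN2 (left) and CD9 (right) in CPM (y axis) in Astro-like nuclei without and with a GFAP UMI (x axis), with a line joining the values of each library (blue control, red ALP). All 6 lines rise for both genes, and for TSPAN2 the mean goes from 31.1 to 94.8 CPM.

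CD82 and CD151, the integrin-associated tetraspanins, had their highest means in Endo-like nuclei. CD82 had 82.5 CPM ± 20.7 there (31 UMIs), and no Endo-like value overlapped those of Astro-like nuclei, which were next at 23.5 ± 6.23. Micro-like nuclei had 18.6 ± 10.3 and Oligo nuclei 14.98 ± 7.60. CD151 had 87.2 ± 35.1 in Endo-like (28 UMIs), 39.0 in fibroblast-like and 29.7 in ependymal-like nuclei, and 9.7 to 14.9 CPM elsewhere. Its Endo-like values overlapped the fibroblast-like ones. Its highest mean was in ependymal-like nuclei without the upper gene limit and in fibroblast-like nuclei at resolution 1, so its leading class is not settled. Unnamed clusters held 29.2% of CD151 UMIs. With so few UMIs the vascular values carry a wide counting error, and neither gene was tested in Endo-like nuclei.

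Micro-like nuclei had IGSF8 at 36.5, 16.7 and 16.5 CPM in control TSs and at 75.6, 74.1 and 89.0 CPM in ALP TSs. These values rested on 31 control and 61 ALP UMIs of IGSF8. Control 2 held 35 Micro-like nuclei, so its IGSF8 and CD9 values in this class carry a wide counting error. The groups did not overlap, and the log2 fold change of 1.57 (SE 0.38) missed the threshold (adjusted p = 0.0554, edgeR), in a class where 0.518% of 5208 features were called higher and 7.91% had all ALP libraries above. CD9 in these nuclei was at 71.4, 83.4 and 85.2 CPM against 108, 114 and 145 CPM, also without overlap, with a log2 fold change of 0.67 (adjusted p = 0.318, edgeR). Summed Micro markers, 7 of 7 detected, also lay higher in ALP Micro-like nuclei, at 4359 to 4964 CPM against 2853 to 4225 CPM, and summed Oligo markers lay lower, at 1468 to 1648 CPM against 1758 to 2002 CPM, with MBP and MOBP at 0. Their part in the IGSF8 and CD9 values was not tested. Nuclei with a UMI of GPNMB, a gene of disease-associated microglia, were above those without for CD9 in 2 of 5 libraries and for IGSF8 in 3 of 5. In these 5 libraries 124 nuclei had GPNMB, with 22 CD9 and 15 IGSF8 UMIs, too few to read a direction or its absence.

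Among neurons, Gran nuclei had CD9 at 26.4, 14.6 and 33.5 CPM in control TSs and at 57.7, 58.9 and 62.8 CPM in ALP TSs. Its log2 fold change was 1.20 (SE 0.25, adjusted p = 0.0392, edgeR), and it was called in a class where 0.48% of 9990 features were called higher and 9.16% had all ALP libraries above. Summed Oligo markers in the same Gran nuclei were 204 to 610 CPM in control TSs and 688 to 912 CPM in ALP TSs, with 5 of the 7 markers detected and MBP and MOBP at 0. The share of Gran nuclei with a CD9 UMI at 1000 UMIs was 2.80%, 1.07% and 3.24% in control and 5.57%, 5.57% and 5.83% in ALP TSs, against the InN shares given above. CD9 had a higher mean in Oligo than in Gran nuclei, and the part of Oligo transcripts or free RNA in the Gran value was not tested. IGSF8 in Gran nuclei was at 63.0, 29.2 and 49.2 CPM against 92.8, 79.3 and 107 CPM, with a log2 fold change of 0.90 (SE 0.24, adjusted p = 0.0729, edgeR). Control 2, the library with the lowest CD9 and IGSF8 values in this class, held 55 Gran nuclei, so those values rest on few UMIs. Control TSs together had 92 CD9 and 191 IGSF8 UMIs in Gran nuclei. TSPAN7 overlapped in Gran nuclei, with a log2 fold change of 0.66 (adjusted p = 0.238, edgeR). PTGFRN there was at 4.02, 4.87 and 4.47 CPM in control TSs and 2.26, 2.36 and 3.31 CPM in ALP TSs. It was the only pair of member and class with all ALP libraries below the control libraries. This pair was too low for the test and rested on 9 ALP and 14 control UMIs. Of features tested in Gran nuclei 12.9% lay below, a share that is no match for such a pair.

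Pyra and InN nuclei showed the same genes with higher values and no call. In Pyra nuclei IGSF8 was at 70.8, 38.0 and 47.4 against 105, 87.3 and 87.2 CPM, a log2 fold change of 1.03 (SE 0.24, adjusted p = 0.101, edgeR). TSPAN7 was at 23.9, 13.8 and 18.4 against 37.4, 34.9 and 44.1 CPM, a log2 fold change of 1.23 (SE 0.27, adjusted p = 0.101, edgeR). In InN nuclei IGSF8 was at 44.2, 37.7 and 32.0 against 78.1, 57.9 and 64.8 CPM, a log2 fold change of 0.98 (SE 0.20, adjusted p = 0.0531, edgeR), and TSPAN7 was at 21.5, 27.1 and 20.7 against 34.8, 29.9 and 46.6 CPM. CD9 overlapped in Pyra nuclei and did not in InN nuclei, where its log2 fold change was 1.17 (SE 0.34, adjusted p = 0.103, edgeR). Summed Oligo markers in InN nuclei were 68.6 to 197 CPM in control and 110 to 142 CPM in ALP TSs, with MBP and MOBP at 0. Free RNA was not measured and its part in the CD9 value was not tested, so that value is not read as expression by inhibitory neurons. No feature of either class was called higher (0%) by edgeR, although 2283 of 13313 features in Pyra and 2347 of 11935 in InN nuclei had an unadjusted p under 0.05, and DESeq2 called 101 and 104 features higher. All ALP libraries lay above in 5% of Pyra and 6.12% of InN features.

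Over all kept nuclei of a library, a sum that also moves with the mix of cell types, IGSF8 was at 50.9, 43.5 and 43.5 CPM in control TSs and at 98.4, 76.9 and 96.2 CPM in ALP TSs. CD9 was at 71.2, 47.4 and 86.0 against 122, 121 and 162 CPM, and TSPAN7 at 20.1, 26.0 and 18.2 against 35.0, 37.9 and 40.6 CPM. None of these groups overlapped. The log2 fold changes were 1.20 for IGSF8 (SE 0.17), 1.20 for CD9 (SE 0.23) and 1.05 for TSPAN7 (SE 0.20), each with an adjusted p of 0.0679 by edgeR. No feature was called higher at this level (0% of 22749), all ALP libraries lay above for 5.5%, 5323 had an unadjusted p under 0.05, and DESeq2 called 563 higher. CD82, CD151, PTGFRN and TSPAN2 had log2 fold changes of 0.30, -0.11, -0.17 and -0.39. CD151 lay lower in all ALP libraries, at 16.1, 18.8 and 17.7 against 15.7, 11.5 and 14.6 CPM, as did 22.4% of all features tested.

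**Figure D4:**
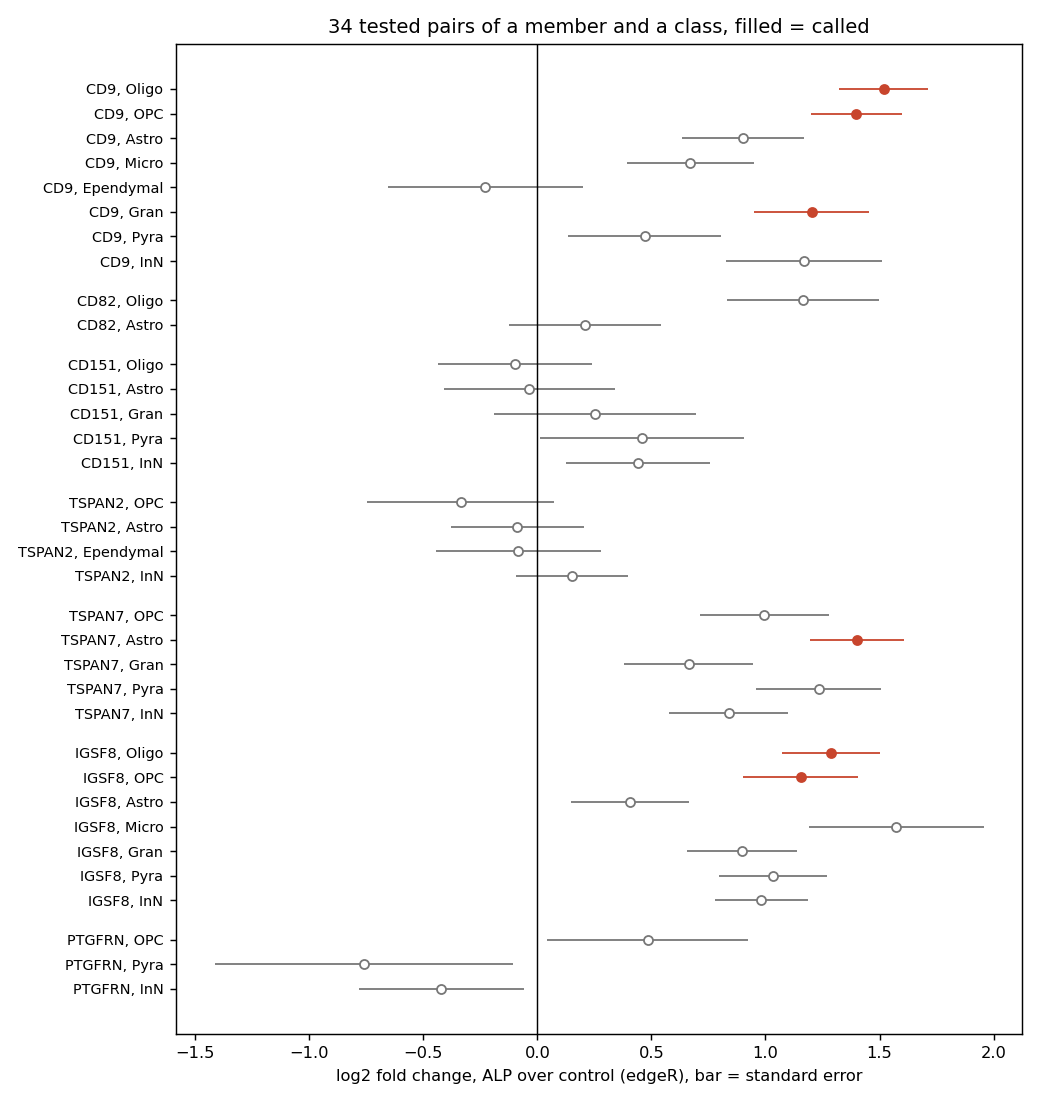
log2 fold change of ALP over control TSs (x axis) for each member in each class where it was tested, with bars of 1 SE and filled points for called pairs. CD9, IGSF8 and TSPAN7 lie right of 0 in all classes but CD9 in ependymal-like nuclei, and CD151, TSPAN2 and PTGFRN lie on both sides.

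Counting all classes, 34 pairs of member and class were tested, 26 had a positive log2 fold change and 6 were called, all higher in ALP TSs. Median log2 fold changes over the classes tested were 1.04 for CD9, 1.03 for IGSF8 and 1.00 for TSPAN7. The median over all features tested in a class was near 0, where TMM scaling places it, so it is no contrast to these values. In the 70 pairs of the 7 detected members and 10 classes, tested or not, ALP libraries lay wholly above control libraries in 20, of which 7 were CD9, 6 IGSF8, 6 TSPAN7 and 1 CD82. Among all features tested that share was 4.13% in Endo-like, 7.68% in ependymal-like and 4.83% in fibroblast-like nuclei, where few features could be tested and none was called higher (0%). Untested pairs among the 20 rested on few UMIs. These were TSPAN7 in Micro-like (8 ALP and 1 control UMIs) and ependymal-like nuclei (7 and 3), and CD9 in Endo-like nuclei (9 and 10). Shares over tested features are no match for such pairs. The classes share their animals and are not replicates of each other. The count of called pairs changed with the library left out: without ALP 1 or without ALP 3 no pair was called, without control 3 the count was 1, without ALP 2 it was 5, and without control 1 or control 2 it was 7. Calls over all features moved too. Without ALP 1, ALP 3 and control 3, features called higher were 0, 1 and 0 in Oligo nuclei (225 with all libraries). They were 0, 0 and 8 in OPC-like (35), 2, 2 and 2 in Astro-like (10) and 0, 0 and 3 in Gran nuclei (48). Without ALP 2 and without control 2 they were 499 and 409 in Oligo nuclei. The log2 fold changes of the 6 pairs called with all libraries ran from 0.96 to 1.64 in these refits. None of these 6 pairs overlapped between the groups, so leaving out a library could hardly turn their sign. The kept sign is thus no measure of stability. CD9 in ependymal-like nuclei had values of 449, 226 and 207 against 185, 409 and 130 CPM and no direction that held.

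The partners and relatives of the members were read from 6 lists over the Oligo, OPC-like, Astro-like, Micro-like, Gran, Pyra and InN classes. Of 24 other tetraspanins in the annotation, 1 of 50 pairs of gene and class tested was called. That was CD53, a tetraspanin of immune cells, in Micro-like nuclei, at 342, 267 and 330 CPM in control TSs and 599, 585 and 618 CPM in ALP TSs (log2 fold change 0.92, SE 0.20, adjusted p = 0.0343, edgeR), beside the higher Micro marker sum in ALP TSs given above. It was 1 of 4 pairs of its list tested in Micro-like nuclei. Of 17 integrins none of 54 pairs was called, and none of 16 pairs of 3 ADAM proteases nor of 3 pairs of the other EWI-type proteins IGSF3 and CD101. Of all features tested, 1.93% were called higher in Oligo, 0.518% in Micro-like, 0.48% in Gran and 0.399% in OPC-like nuclei. The share was 0.0986% in Astro-like and 0% in Pyra and InN nuclei. A list without a call is near these shares and was not read as a result. In these lists 3 integrin pairs and 0 ADAM pairs had an unadjusted p under 0.05 with a higher value, and 4 integrin pairs with a lower one. DESeq2 called no ADAM or EWI-type pair and 1 integrin pair, ITGB8 lower in Pyra nuclei (log2 fold change -1.57, adjusted p = 0.0306).

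Exosome and multivesicular body genes had 2 calls in 56 pairs, both in Oligo nuclei and both lysosome-associated membrane proteins. They were 2 of 8 pairs tested in Oligo nuclei, where 1.93% of all features were called higher. LAMP2 was at 72.5, 51.4 and 61.5 CPM in control TSs and 108, 129 and 121 CPM in ALP TSs (log2 fold change 0.99, SE 0.18, adjusted p = 0.0181, edgeR). LAMP1 was at 11.6, 27.4 and 19.6 against 40.1, 44.1 and 49.0 CPM (log2 fold change 1.49, SE 0.30, adjusted p = 0.0227, edgeR). Of 45 pairs of other partners (6 of them in Oligo nuclei), 1 was called, CLDN11 in Oligo nuclei, the tight-junction protein of myelin that also forms complexes with tetraspanins. It was at 128, 120 and 120 CPM in control TSs and 175, 190 and 184 CPM in ALP TSs, a log2 fold change of 0.67 (SE 0.16, adjusted p = 0.0417, edgeR). DESeq2 called LAMP2, LAMP1 and CD53 in the same classes and did not call CLDN11. No pair of any of the 6 lists was called lower by edgeR.

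The features most like each member over the 60 library and class sums were found by Pearson correlation of log levels among 7970 features, as a description over sums that share libraries and depth. CD9 was closest to DDX17 (r = 0.79), TF (0.76), the iron carrier made by oligodendrocytes, and CUEDC1 (0.76). CD82 was closest to MAL (0.82), a myelin proteolipid, NFKBIA (0.81) and CDK4 (0.79), and CD151 to RPS14 (0.81), SRP14 (0.79) and RPL13 (0.79). TSPAN2 was closest to SLC38A3 (0.81), a glutamine transporter, VIM (0.80) and EPB41L4A (0.79). TSPAN7 was closest to B3GALT1 (0.73), CNTN1 (0.72) and CTNNA2 (0.71), IGSF8 to CTTNBP2 (0.64), NEMP2 (0.63) and POLR2B (0.63), and PTGFRN to SORCS3 (0.71), MACROH2A2 (0.70) and CHST12 (0.67). Among the members the highest correlation was that of CD82 and CD151, at 0.59.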

How the data were processed

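Nuclei from frozen hippocampus of 3 ALP and 3 control TSs were profiled with 10x 3′ v3.1 chemistry. The deposited values are UMI counts per feature and barcode, which the authors made with Cell Ranger against the TreeshrewDB genome. The submitters' notes give version 3.1.0 and the matrix headers 6.1.2, and the build and the use of strand are not given in the sources used here. The stated filter (200 to 2500 genes, under 5% mitochondrial UMIs) left 28233 barcodes, the number of nuclei the study analysed.

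Nuclei were scaled to 10000 UMIs, and 2000 variable genes, 30 components and 20 neighbours gave Leiden clusters at resolution 2 (scanpy 1.11.5, leidenalg 0.10.2). A cluster was named from at least 3 listed markers, and left unnamed with under 50 nuclei, at least 10% marked doublets or mixed markers. These naming thresholds were set after seeing the data. Marked doublets (0.8% per 1000 barcodes) stayed in and were left out as an alternative. UMIs were summed per library and class (at least 10 nuclei) and tested with edgeR 4.0.16 (TMM, filterByExpr with a minimum count of 10, quasi-likelihood). CPM are UMIs per 1000000 of a library and class. With 1 library per animal, p-values measure the spread between 3 animals. Intervals and limits from a count of 0 (3 counts) cover counting error only. Alternatives were DESeq2 1.42.0, upper-quartile factors, no filter, a replicate block, no upper gene limit, no marked doublets and each library left out.

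The members and lists were chosen with earlier results of these data known. All members were named, with the 3 most similar features (log2(CPM + 10), at least 300 UMIs) and called genes of the partner lists, at most 20. On simulated counts the test recovered 62.4% of 181 changed genes among 11246 in Oligo nuclei and 96.3% of those changed 4-fold, and in Pyra nuclei, the lowest of 7 classes simulated, 43.1% of 181 among 12675 and 82.7% of those changed 4-fold. The simulation gave all genes of a class the same dispersion and all libraries the same base profile. Recovery in the real counts was not measured. All 9 members matched the RefSeq table of TupChi_1.0, used for names only.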

Additional observations from a re-analysis of the deposited data

Results flagged for a closer look

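Members were also counted in barcodes that no comparison by class used. Those outside the filter entered only the alternative with no upper gene limit, and nuclei of unnamed clusters entered the sums over all nuclei but no class. In barcodes outside the filter IGSF8 was at 43.5, 40.5 and 34.3 CPM in control TSs and at 73.2, 57.2 and 61.9 CPM in ALP TSs, so the ALP mean of 64.1 CPM lay above the control libraries. In unnamed clusters IGSF8 was at 52.1, 72.7 and 51.6 against 103, 82.4 and 90.1 CPM, with an ALP mean of 91.7 CPM. TSPAN7 was at 22.7, 21.0 and 13.03 against 27.3, 29.0 and 36.2 CPM outside the filter, with an ALP mean of 30.8 CPM. In unnamed clusters TSPAN7 was at 24.2, 16.4 and 18.5 against 34.7, 33.2 and 38.6 CPM, with an ALP mean of 35.5 CPM. CD9 overlapped between the groups in both sets. TSPAN2 lay lower in all ALP libraries in both, with means of 11.6 against 5.94 CPM outside the filter and 20.3 against 10.3 CPM in unnamed clusters. Of the 22749 features tested over all nuclei, 5.71% lay higher and 31.2% lower in all ALP libraries outside the filter, and 4.37% and 7.37% in unnamed clusters, so the TSPAN2 separation outside the filter is a common one. These barcodes come from the same 6 animals.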

How the results depend on the processing

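Of 537 values of a member in a class or over all nuclei under an alternative, 508 kept their direction and 29 did not. None of the 29 was a called pair, but called pairs had no overlap between groups, so leaving out a library could hardly turn them. The 6 calls per class became 14 without a filter on low counts and 2 with the replicate number as a block, and 0 to 7 without one library (0 without ALP 1 or ALP 3, 1 without control 3). Calls over all features fell in the same refits, in Oligo nuclei from 225 higher to 0 without ALP 1, 1 without ALP 3 and 0 without control 3. The cause of these changes was not tested. Deviations of same-numbered libraries from their group means correlated at -0.097, -0.056 and -0.085 over all nuclei. With 3 libraries per group these deviations are tied to each other, so the values cannot tell whether same-numbered libraries were handled together. The 0 calls over all nuclei became 3 with DESeq2, 3 without the filter and 0 to 3 without one library (1 without ALP 2, 3 without control 2). With a term for Y-linked transcripts, added after seeing the data, 5 pairs were called and CD9 in Gran nuclei was lost (adjusted p = 0.0547, edgeR). CD9 in Oligo nuclei was called in 11 of 14 alternatives, IGSF8 in Oligo in 11 of 14, CD9 in OPC-like in 10 of 13, TSPAN7 in Astro-like in 9 of 13, IGSF8 in OPC-like in 5 of 13 and CD9 in Gran in 4 of 13. The block left 1 feature called higher in OPC-like nuclei (35 without it) and 2 in Gran nuclei (48), and DESeq2 called 99 higher in Astro-like nuclei (10 by edgeR). The class with the highest level stayed the same for 5 of 7 members without the upper gene limit and for 6 at resolution 1, and thinning to 500 UMIs gave a CD9 share of 14.2% in Oligo nuclei. Log2 fold changes near 0 turned: CD151 in Oligo to 0.053 without the clusters with more ALP nuclei, CD151 in Astro-like to 0.022 with the block, TSPAN2 in Astro-like to 0.023 and CD9 in ependymal-like to 0.36 and CD151 over all nuclei to 0.13 without the upper limit. With the Y-linked term TSPAN2 turned to 0.032 in Astro-like and 0.037 in ependymal-like nuclei and PTGFRN over all nuclei to 0.0019. Leaving out one library gave -0.24 to 0.16 for CD151 in Oligo, -0.24 to 0.15 for CD151, -0.045 to 0.49 for CD82 and -0.39 to 0.18 for TSPAN2 in Astro-like, -0.91 to 0.13 for CD9 and -0.36 to 0.10 for TSPAN2 in ependymal-like, -0.054 to 0.58 for CD151 in Gran and -0.050 to 0.39 for TSPAN2 in InN nuclei. Over all nuclei these ranges were -0.19 to 0.049 for CD151, -0.40 to 0.046 for PTGFRN and -0.75 to 0.080 for TSPAN2. Depth limits CD82, CD151 and PTGFRN most, and the vascular classes.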

Other observations

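Libraries with Y-linked transcripts (control 1, control 2 and ALP 2) were set beside the others for each member, a split seen after the values were known and given without a test. Of the 41 pairs of member and class (or all nuclei) tested between ALP and control TSs, these libraries lay wholly above the others in 7 and wholly below in 1. TSPAN2 gave 4 of the 7, at 25.4 to 27.8 against 8.02 to 14.8 CPM in OPC-like, 64.4 to 74.9 against 26.0 to 52.0 CPM in Astro-like, 321 to 358 against 185 to 259 CPM in ependymal-like and 35.1 to 53.1 against 31.2 to 34.6 CPM in InN nuclei. Over all nuclei TSPAN2 overlapped, at 19.6 to 40.9 against 11.4 to 19.9 CPM. The others were CD9 in ependymal-like nuclei (226 to 449 against 130 to 207 CPM), PTGFRN in Pyra nuclei (13.02 to 19.0 against 2.43 to 9.22 CPM) and PTGFRN over all nuclei (8.95 to 10.3 against 4.42 to 6.74 CPM). The 1 below was CD82 over all nuclei (8.41 to 8.54 against 8.88 to 9.89 CPM). For PTGFRN, 77 of its 103 UMIs in Pyra nuclei lay in the cluster led by TSHZ2. Without the upper gene limit, the Pyra cluster with TSHZ2 held 279, 49 and 11 control nuclei and 54, 231 and 63 ALP nuclei. The mix of Pyra clusters thus also differed along this split, and its part in the PTGFRN values was not tested. Of 28 pairs too low for the test, 2 lay above (CD82 in Micro-like and CD151 in ependymal-like nuclei) and 1 below (PTGFRN in Micro-like nuclei). Of all features tested, 5.51% in OPC-like, 7.71% in Astro-like, 7.68% in ependymal-like, 6.74% in InN and 10.4% in Pyra nuclei and 5.33% over all nuclei lay wholly above. The share of features wholly below was not counted, so the pairs below were not read as a result. Shares over tested features are no match for the 28 pairs too low for the test. The classes share the same animals, and control 2, the library with the highest median depth, is one of those with these transcripts.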
